A study of Mus musculus with 2 samples.

Results

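The enzymes described here make serine, glycine, asparagine and the formyl and methylene groups carried by tetrahydrofolate. They are 10 genes, chosen by name through the annotation of the array's probe sets, of 19505 genes measured. The study compared PDLIM2-knockdown and control Lewis lung carcinoma (LLC) cells, a mouse lung tumor line of C57BL/6 origin, to find genes with higher or lower expression after the knockdown. The shPDLIM2 line was infected with virus carrying an shRNA against PDLIM2, and the shEmpty line with virus carrying an empty shRNA vector. Both were selected with puromycin as stable lines. The knockdown line rests on a single shRNA, and the sources used here do not say whether either line was a clone or a pool. RNA of each line was hybridized to 1 Affymetrix Clariom S array, so that there are no replicates, no error between cultures and no p-value for any difference.

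Serine is made from the glycolytic intermediate 3-phosphoglycerate by Phgdh, which oxidizes it, Psat1, which transfers an amino group to the product, and Psph, which removes the phosphate. The serine hydroxymethyltransferases then move a carbon from serine to tetrahydrofolate and leave glycine, with Shmt1 in the cytosol and Shmt2 in mitochondria. In mitochondria Mthfd2 oxidizes the folate-bound carbon and Mthfd1l releases it as formate, whereas in the cytosol the single protein Mthfd1 carries these folate interconversions for purine and thymidylate synthesis. Aldh1l2 oxidizes mitochondrial formyl-tetrahydrofolate to CO2 with production of NADPH, and Asns makes asparagine from aspartate with glutamine as the nitrogen donor. Several of these genes are known targets of ATF4, a transcription factor induced when amino acids are scarce, and serine and folate metabolism supports the growth of many tumor cells.

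The sequence around the transcription start is shown for the members with the largest differences and for Asns, whose promoter is the textbook case of amino acid control. Of the 10 genes, 9 were matched to RefSeq windows of 250 bases before and 50 bases after a start (build GRCm38.p6), with 10 windows in all because Psat1 has a pair. The windows are Asns, chr6:7693160-7693459, minus strand, Mthfd2, chr6:83317555-83317854, minus strand, Psph, chr5:129787204-129787503, minus strand, and Mthfd1, chr12:76254982-76255281, plus strand. Each is written 5′ to 3′ along the gene. Capitals mark the amino acid response core TGATGNAA, the GTTACA element that follows it in the human ASNS promoter, and CCAAT boxes, each searched on both strands.
Asns: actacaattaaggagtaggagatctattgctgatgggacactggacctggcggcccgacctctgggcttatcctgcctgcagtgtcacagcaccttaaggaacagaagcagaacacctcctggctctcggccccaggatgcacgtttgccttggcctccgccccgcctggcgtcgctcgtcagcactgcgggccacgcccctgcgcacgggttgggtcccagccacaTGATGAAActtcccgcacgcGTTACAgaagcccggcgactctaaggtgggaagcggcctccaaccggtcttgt
Mthfd2: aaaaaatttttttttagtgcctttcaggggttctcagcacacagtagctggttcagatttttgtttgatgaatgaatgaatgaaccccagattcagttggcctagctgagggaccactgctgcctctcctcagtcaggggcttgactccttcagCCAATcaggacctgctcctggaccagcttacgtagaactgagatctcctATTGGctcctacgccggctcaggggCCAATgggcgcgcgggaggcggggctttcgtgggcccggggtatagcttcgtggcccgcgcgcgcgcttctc
Psph: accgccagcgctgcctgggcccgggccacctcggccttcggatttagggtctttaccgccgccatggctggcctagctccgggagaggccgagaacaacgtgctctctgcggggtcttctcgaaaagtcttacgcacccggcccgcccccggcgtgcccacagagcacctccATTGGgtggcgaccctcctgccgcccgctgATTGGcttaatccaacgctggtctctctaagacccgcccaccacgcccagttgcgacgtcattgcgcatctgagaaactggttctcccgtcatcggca
Mthfd1: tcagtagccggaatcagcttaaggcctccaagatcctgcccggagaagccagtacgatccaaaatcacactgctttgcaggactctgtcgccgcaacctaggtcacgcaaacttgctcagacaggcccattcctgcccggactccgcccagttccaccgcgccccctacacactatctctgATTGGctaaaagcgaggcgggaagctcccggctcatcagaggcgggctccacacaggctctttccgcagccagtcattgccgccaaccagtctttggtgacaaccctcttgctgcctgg

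The Asns window held TGATGAAA at bases -23 to -16 from the annotated start and GTTACA at bases -3 to 3. It was the only one of the 10 member windows with either motif, and they stood in 3.97% and 8.25% of all 32851 windows. A CCAAT box was found in 6 member windows, those of Mthfd2, Psph, Phgdh, Shmt1, Mthfd1 and 1 of the pair of Psat1, and in 37.4% of all windows. No member window held the E-box CACGTG (7.15% of all windows) or the cAMP response element TGACGTCA (1.79%). The GC box GGGCGG, on either strand and not in capitals, was found in 6 member windows and in 35.7% of all windows. Matches did not overlap in the member windows, except for adjoining GC boxes of Shmt1. The CCAAT box was thus shared by members with higher and with lower signals in shPDLIM2 cells, and a match describes letters in this window alone.

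The targeted gene was lower in the knockdown line. Pdlim2 had a log2 signal of 8.33 in shPDLIM2 cells, against 10.04 in shEmpty cells, a log2 difference of -1.71. Each log2 difference is that of shPDLIM2 minus shEmpty cells on the deposited log2 scale. A gene is called above background on an array where its signal exceeds the 95th percentile of 1465 odorant, vomeronasal, taste and trace amine receptor genes, which was 5.26 on the shPDLIM2 array and 5.12 on the shEmpty array. By this limit 10800 genes passed on at least 1 array. Of 6 epithelial markers, 2 were above background in shPDLIM2 cells and 3 in shEmpty cells. Krt18 had signals of 11.29 in shPDLIM2 and 12.20 in shEmpty cells and Krt8 6.59 and 6.95, while Epcam, Cdh1 and Cldn4 were not above background on either array. Krt19 had 4.67 in shPDLIM2 and 5.82 in shEmpty cells and was above background in shEmpty cells alone. All 6 were lower in shPDLIM2 cells, with a median log2 difference of -0.65, while 54.9% of all genes above background were lower. Of 17 markers of fibroblasts, macrophages, lymphocytes and endothelium, 3 in shPDLIM2 cells and 0 in shEmpty cells were above background, and none exceeded 5.82. The part of these markers in the differences of the enzymes was not tested. In bulk RNA, fewer cells of a type and less RNA per cell cannot be told apart.

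All 10 enzymes were above background on both arrays, and their differences went both ways. In shPDLIM2 LLC cells 7 were higher and 3 lower, with a median log2 difference of 0.145, while among all genes above background 44.2% were higher and 54.9% lower, with a median of -0.06. The largest positive differences were those of Mthfd2 and Psph, and the negative ones were those of Mthfd1, Shmt1 and Psat1. At least 1.5-fold higher were 2 of the 10, against 9.78% of all genes, and at least 2-fold higher was 1, against 2.09%. None was at least 1.5-fold or 2-fold lower, limits that 14.5% and 3.27% of all genes passed.

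**Figure D1:**
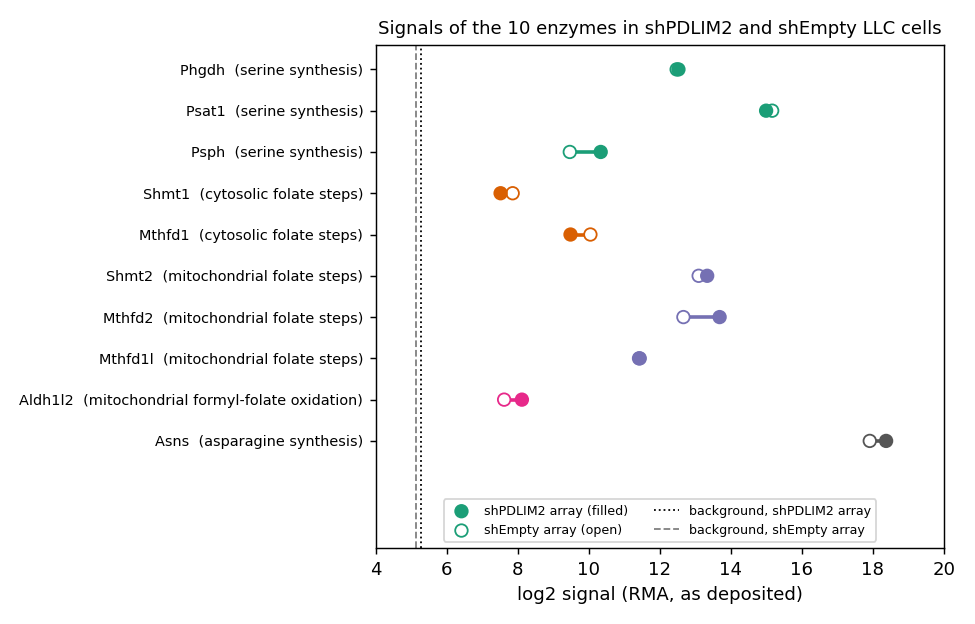
Deposited log2 signals of the 10 enzymes on the shPDLIM2 array (filled points) and the shEmpty array (open points), 1 array each; the vertical lines are the background levels of 5.26 and 5.12. Mthfd2 and Psph show the widest gaps to the right, and Mthfd1 and Shmt1 lie to the left in shPDLIM2 cells.

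The genes of serine synthesis differed among themselves. Psph, the last step, had a signal of 10.33 in shPDLIM2 cells and 9.46 in shEmpty cells, a difference of 0.87 or 1.83-fold higher. Among all genes above background, 3.51% differed at least as far upward. Phgdh, the first and committed step, had nearly equal signals of 12.52 in shPDLIM2 and 12.47 in shEmpty cells, a difference of 0.05. Psat1, the aminotransferase between them, had 14.99 in shPDLIM2 cells and 15.16 in shEmpty cells, a difference of -0.17. Psph and Psat1 thus lay 1.04 apart in their log2 differences although they catalyze neighbouring steps.

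For the folate steps, the mitochondrial members lay above 0, Mthfd1l barely so, and the cytosolic members below it. Mthfd2l, a mitochondrial folate gene outside the members, was below 0, at -0.47. Mthfd2 had a signal of 13.68 in shPDLIM2 cells and 12.66 in shEmpty cells, a difference of 1.02 or 2.03-fold higher. Upward differences of that size were found in 1.92% of all genes above background, and in 0.89% of the 337 genes within 0.5 log2 units of its mean signal. Mthfd2 itself is counted in both. In each gene's own direction, the share among genes of like signal was also smaller for most other members. It was larger for Mthfd1 (16.6% against 15.9%), Shmt1 (30.4% against 28.9%) and Mthfd1l (45.1% against 43.4%). Shmt2 had 13.33 in shPDLIM2 cells and 13.09 in shEmpty cells, a difference of 0.24. Mthfd1l, the formate-releasing ligase, had nearly the same signal on both arrays, 11.43 in shPDLIM2 cells and 11.41 in shEmpty cells, a difference of 0.02.

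Both cytosolic genes were lower. Mthfd1 had a signal of 9.48 in shPDLIM2 cells and 10.04 in shEmpty cells, a difference of -0.56 or 1.47-fold lower, and 15.9% of all genes differed at least as far downward. Shmt1 had 7.51 in shPDLIM2 cells and 7.85 in shEmpty cells, a difference of -0.34. These are modest downward differences, since 28.9% of all genes were at least as low as Shmt1.

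The median difference of Shmt2, Mthfd2 and Mthfd1l was 0.24 and that of Shmt1 and Mthfd1 was -0.45, so that the mitochondrial steps lay 0.69 above the cytosolic ones. By reaction, Shmt2 exceeded Shmt1 by 0.58, and Mthfd2 and Mthfd1l exceeded Mthfd1 by 1.58 and 0.58. As a scale for these gaps, the spread (1 standard deviation) of 1 probe set's difference was 0.35, and that of a gap between 2 probe sets 0.49. It was taken from 48 genes that the array measures with a pair of probe sets. These 48 were not limited to genes above background or to signals like those of the enzymes. The gap of 1.58 was well past that spread, while both gaps of 0.58 were only just past it, which is an ordinary distance. The gaps of Mthfd2 and Mthfd1l share the probe set of Mthfd1, and Mthfd1l itself was at 0.02 against -0.56 for Mthfd1. Of these folate genes, only Mthfd2 and Mthfd1 lay further from 0 than 0.35. Each enzyme is measured by 1 probe set, and this spread covers probe sets of the same array, not separate cultures.

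**Figure D2:**
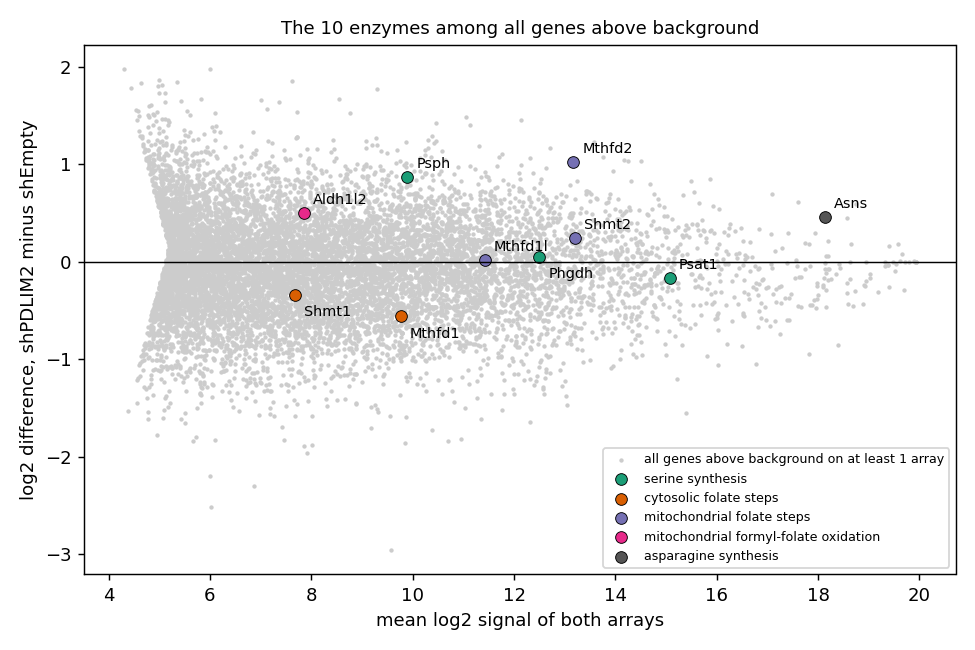
Log2 difference (shPDLIM2 minus shEmpty) against the mean log2 signal of both arrays; grey points are the 10800 genes above background on at least 1 array, coloured points the 10 enzymes by role. Mthfd2 stands near the upper edge of the genes of like signal, and Asns among few genes near the top of the scale.

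The remaining mitochondrial enzyme and asparagine synthetase were both higher in shPDLIM2 cells. Aldh1l2 had a signal of 8.11 in shPDLIM2 cells and 7.61 in shEmpty cells, a difference of 0.50 or 1.41-fold higher, as far upward as 13.2% of all genes. Asns had 18.37 in shPDLIM2 cells and 17.91 in shEmpty cells, a difference of 0.46 or 1.38-fold higher, as far upward as 15.0% of all genes. Its signal was near the highest on the arrays, 19.93, where few genes lie. Among the 42 genes within 0.5 log2 units, 2.38% differed at least as far upward. That share is Asns counted alone, the smallest that 42 genes can give.

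Ordered by their differences, the genes ran from Mthfd2 through Psph, Aldh1l2, Asns, Shmt2, Phgdh, Mthfd1l, Psat1 and Shmt1 to Mthfd1. The widest step between neighbours in this order was 0.37, between Psph and Aldh1l2, against the spread of 0.49 between probe sets. Sorting brings neighbours close, so small steps say nothing about genes further apart in the order. Mthfd2 and Mthfd1, at the ends of the order, lay 1.58 apart. Of the 10 differences, 5 were larger than the 0.35 of a single probe set (Mthfd2, Psph, Aldh1l2, Asns and Mthfd1) and 5 were smaller. Differences of about that size were common. Of all genes above background, 21.2% were at 0.34 or above and 28.9% at -0.34 or below. Among genes outside the lists described here that were above background on both arrays and were neither predicted genes nor Rik clones, those with differences closest to that of Mthfd2 were Defb46 (1.02), Ankrd42 and Clic6 (1.03 each), and Btg2 and Dusp1 (1.01 each). Likeness here is the distance between log2 differences over 2 arrays, and 53 of these 9215 genes lay within 0.05 of Mthfd2.

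**Figure D3:**
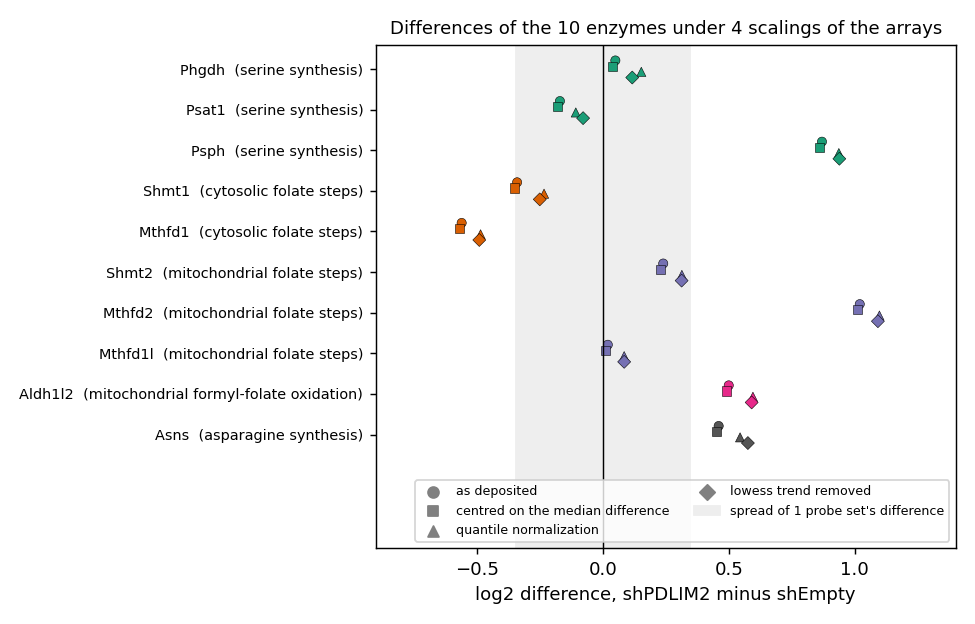
Log2 differences of the 10 enzymes with the arrays as deposited and under the other scalings tried; the grey band is the spread of 1 probe set's difference, 0.35 on either side of 0. No point crosses 0, and Mthfd2 stays past 1 under each.

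Neighbouring genes of the same pathways went both ways. Of 63 further genes in 9 lists, 50 were measured and 39 were above background on at least 1 array. The other 13 of the 63 were not analysed here. In shPDLIM2 cells 30 of the 50 were higher and 20 lower, with a median of 0.16. Of all genes above background 44.2% were higher and 54.9% lower, which also stands beside the counts of each list below. Unlike these shares, the list counts include genes not above background on either array. Of those, Aldh1l1, Ftcd, Slc46a1, Folr1, Folr2, Cbs, Gnmt and Bhmt were higher, and Ggh, Sfxn2 and Gldc lower. Of the 50, which include genes not above background, 5 were at least 1.5-fold higher and 3 at least 1.5-fold lower. The shares of all genes, 9.78% and 14.5%, count only genes above background. Of the 5 higher genes, Slc1a5 and Atf4 were above background on both arrays, Aspg and Chac1 in shPDLIM2 cells alone and Folr1 on neither. The 3 lower genes were above background on both arrays. Of 9 other folate enzymes 4 were higher and 5 lower, with a median of -0.06. Mthfd2l, a mitochondrial relative of Mthfd2, had a signal of 8.21 in shPDLIM2 cells and 8.68 in shEmpty cells, a difference of -0.47, so that not every mitochondrial folate gene lay above 0. Mtrr, which reactivates methionine synthase, was at 0.29, Tyms, the thymidylate synthase, at 0.17 and Mthfs, which returns formyl-folate to the pool, at -0.37. Aldh1l1, the cytosolic relative of Aldh1l2, was not above background on either array, with 5.23 in shPDLIM2 and 4.84 in shEmpty cells.

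Genes that carry serine and folate had the highest median of the 9 lists, 0.41, with 7 of 10 higher and 3 lower, and 6 of the 10 were above background. Slc1a5, a carrier of neutral amino acids, had a signal of 9.93 in shPDLIM2 cells and 9.09 in shEmpty cells, a difference of 0.84. The carriers of the inner mitochondrial membrane Slc25a32, for folate, and Sfxn1, for serine, were at 0.57 and 0.44, with Sfxn1 at 12.77 in shPDLIM2 and 12.33 in shEmpty cells. Slc1a4, another neutral amino acid carrier, was lower, at -0.44.

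Downstream, the glycine cleavage system had 2 genes higher and 2 lower. Dld and Gcsh were at 0.30 and 0.21. Of the lower pair, Amt was above background in shEmpty cells alone and at least 1.05-fold lower against the background level, and Gldc was not above background on either array. Amt, at 5.33 in shEmpty cells, was below the 99th percentile of the receptor genes on that array, 5.70. Gart and Atic, the purine synthesis enzymes that take formyl groups, were at -0.15 and 0.03. Of 4 methionine cycle genes 3 were lower, with a median of -0.35, and the higher one, Bhmt, was not above background on either array. Mat2b, a subunit of methionine adenosyltransferase, had 10.09 in shPDLIM2 cells and 10.99 in shEmpty cells (-0.90), and Ahcy, which hydrolyzes S-adenosylhomocysteine, was at -0.58 and Mtr, the methionine synthase, at -0.12. Of 8 genes that use serine or glycine 4 were higher and 4 lower, with Srr, the serine racemase, at 0.50, Cth, which makes cysteine from cystathionine, at 0.44, Ptdss2, a phosphatidylserine synthase, at -0.48 and Sptlc2, of sphingolipid synthesis, at -0.06. The remaining higher genes, Cbs and Gnmt, were not above background on either array.

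Around asparagine, 5 of 6 genes were higher and 1 was lower, with a median of 0.33. Aspg, an asparaginase, was above background in shPDLIM2 cells alone, at 5.78 against 4.50 in shEmpty cells. Set against the background level it was at least 1.58-fold higher. Its signal was still below the 99th percentile of the receptor genes on the shPDLIM2 array, 5.82. By that stricter limit Aspg was not above background on either array. Asrgl1, which also hydrolyzes asparagine, was at -0.62, Got1, which makes aspartate in the cytosol, at 0.42 and Nars2, the mitochondrial asparaginyl-tRNA synthetase, at 0.42. In proline synthesis Aldh18a1 was at 0.45 and Pycrl at -0.65.

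Of 6 genes of the ATF4 branch, 5 were higher and 1, Eif2ak4 at -0.20, was lower, with a median of 0.35. Atf4 had a signal of 15.95 in shPDLIM2 cells and 15.35 in shEmpty cells, a difference of 0.60, Sesn2 was at 0.46 and Trib3 at 0.24. Chac1 was above background in shPDLIM2 cells alone and at least 1.54-fold higher against the background level. At 5.74 in shPDLIM2 cells, it too was below the 99th percentile of the receptor genes on that array, 5.82. The probe sets of Ddit3, averaged in this count, disagreed at 0.42 and -0.13. Whether Atf4 has a part in the differences of the enzymes was not tested.

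**Figure D4:**
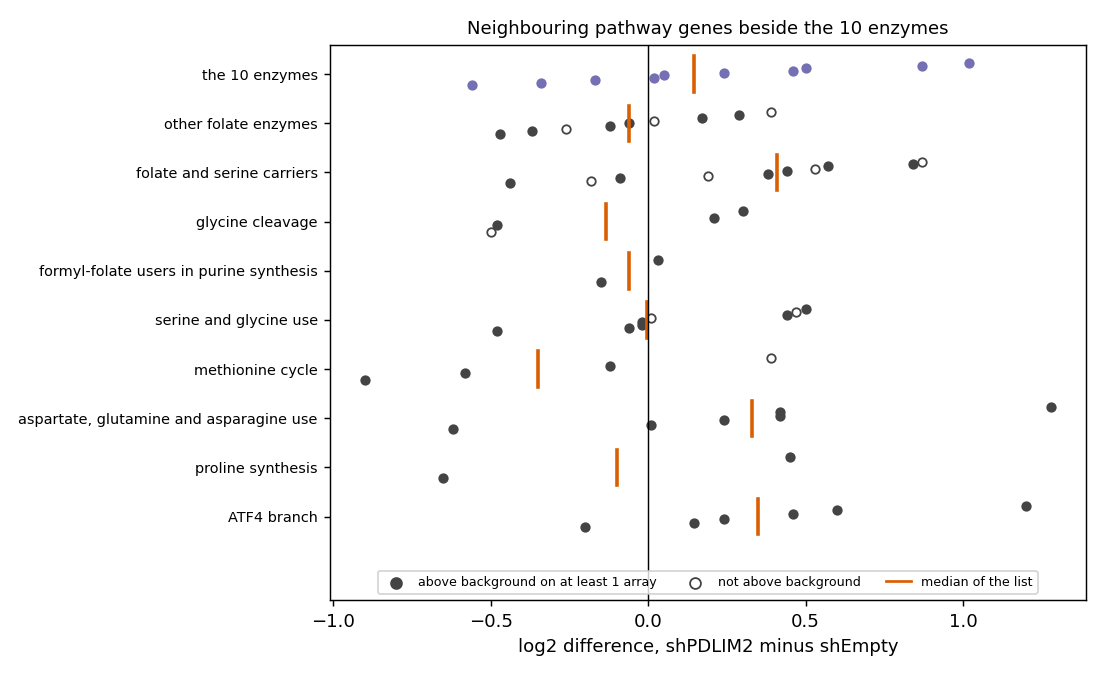
Log2 differences (shPDLIM2 minus shEmpty) of the 10 enzymes and of the measured genes in 9 neighbouring lists; filled points are above background on at least 1 array, open points are not, and bars are list medians. The carriers (0.41), the ATF4 branch (0.35) and the asparagine genes (0.33) have the highest medians, and the methionine cycle (-0.35) the lowest.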

How the data were processed

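RNA of shPDLIM2 and shEmpty LLC cells was hybridized to Affymetrix Clariom S mouse arrays, 1 per line. The values were deposited as log2 signals, 1 per probe set and array, to 2 decimals. Per the submitters' processing notes the authors used the Transcriptome Analysis Console and RMA. The sources used here give neither their versions, nor the genome build, nor the scaling between arrays. RMA corrects background, usually normalizes arrays by quantiles, and summarizes probes. The sources do not say whether these 2 arrays were normalized together. A wrong probe or an unequal scaling can shift a gene's difference. Of 22206 probe sets, 19572 had 1 gene symbol, 0 several and 2634 none; probe sets of 1 gene were averaged, leaving 19505 genes, and each symbol was matched to RefSeq by Entrez identifier. The number of arrays limits the precision.

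The members and lists were chosen with earlier results of these data known. Named genes were the members, for each list up to 4 genes above background that differed most, and the 5 genes closest to Mthfd2 among those above background on both arrays, without predicted genes and Rik clones. Mthfd1, Psph and Asns promoters, Aldh1l1, Ddit3, Eif2ak4, Gldc, Bhmt, Folr1, Cldn4, Krt19 and the motifs were chosen after values were seen. So were the other pathway genes named as not above background, and the comparison with genes of like signal. No test was made. Alternatives were centring, quantile normalization, removal of a lowess trend (fraction 0.3), background at the 99th percentile, members above background alone, Aldh1l2 or, chosen after seeing the data, Mthfd2l added to the mitochondrial steps, and means in place of medians. The scaling steps were checked on artificial arrays with known shifts. Calculations used pandas 2.3.3, numpy 2.4.6 and statsmodels 0.14.6 under Python 3.11.15, and plots matplotlib 3.10.9.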

Additional observations from a re-analysis of the deposited data

How the results depend on the processing

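Over the 3 other scalings, all 30 values of the 10 enzymes kept their sign, and each moved by less than the 0.35 spread of 1 probe set. The count of higher members was 7 under each, and their median, 0.145 as deposited, lay between 0.135 after centring and 0.234 after quantile normalization. Aldh1l2 passed 1.5-fold after quantile normalization (0.60) and removal of the lowess trend (0.59), which made 3 such members in place of 2. The mitochondrial minus cytosolic gap lay between 0.67 (quantile normalization) and 0.88 (means) under the planned settings without added genes. It was 0.82 with Aldh1l2 added to the mitochondrial steps and 0.58 with Mthfd2l added, which was chosen after seeing the data. Pdlim2 lay between -1.72 and -1.63. All 10 enzymes were above the 99th percentile of the receptor genes on both arrays.

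List medians next to 0 changed sign. That of the formyl-folate users in purine synthesis (-0.06 as deposited) was 0.008 after removal of the lowess trend and 0.037 after quantile normalization, and that of serine and glycine use (-0.005) was 0.049 and 0.058; no other list median did so. The cause was not tested. With 1 array per line, no replicate could be left out.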
